A study of Mus musculus with 58 samples.

Results

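The mRNAs of the mitochondrial respiratory chain were followed in brown, beige and white adipocytes of C57BL/6J mice. Members were picked by gene symbol: the nuclear genes whose symbols begin with Nduf, Uqcr, Cox4 to Cox8 or Atp5, plus the Sdh genes of complex II, Cycs and Cyc1. The name rule found 86 of the 11603 rows in the table. They comprised 36 genes of complex I, 4 of complex II, 8 of complex III, 16 of complex IV, 12 of complex V, cytochrome c, and 9 assembly factors that carry a matching name. Rows for the 13 subunits encoded by mitochondrial DNA were not analysed here, so every result concerns nuclear genes.

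The warm beige libraries (n = 3) were taken from inguinal fat after 1 week at 4 °C followed by 4 weeks at 30 °C, and the cold beige libraries (n = 4) from the same depot at the end of the cold week. The warm brown (n = 5) and cold brown (n = 5) libraries came from interscapular brown fat under the same regimes. Warm mice were thus sampled later than cold mice, and temperature and time cannot be told apart. The warm white libraries (n = 5) were also inguinal, from animals that lived at 30 °C from birth, so they differ from warm beige in housing history as well as in cell type. All groups derive from NuTRAP mice, in which a Cre recombinase switches on a green fluorescent tag on ribosomes, so that the tagged ribosomes and their mRNA can be pulled down (TRAP). The series names a Ucp1-NuTRAP and an Adipoq-NuTRAP line, in which Cre follows a thermogenic or a general adipocyte promoter, and does not state the line of each library. The labels call the libraries biological replicates without naming animals, so p-values measure the spread between these samples.

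The respiratory chain passes electrons from NADH (complex I) and succinate (complex II) through ubiquinone to complex III, on to the mobile carrier cytochrome c, and then to oxygen at complex IV. Complexes I, III and IV pump protons out of the matrix, and complex V, the ATP synthase, lets them return to make ATP. Brown and beige adipocytes are dense in mitochondria, and uncoupling protein 1 in their inner membrane lets protons return without making ATP, so that respiration gives heat. Complex IV has tissue forms of several small subunits, among them Cox7a1 and Cox8b, which are known from heart, skeletal muscle and brown fat of mice, with Cox7a2 and Cox8a as their widely expressed partners.

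Values were log2 CPM as deposited, the log2 of read counts scaled to a common library total, and a difference of 1 is a doubling. The antilogs summed per library to between 0.859 and 1.10 times the nominal total, and the depth in reads is unknown. Summed CPM of 7 thermogenic adipocyte markers ranged from 168.2 to 336.3 in warm beige, against 6100 to 7371 in cold beige, from 2140 to 2727 in warm brown, against 9073 to 11270 in cold brown, and from 25.8 to 51.7 in warm white. The 8 general adipocyte markers summed to between 9944 and 11930 CPM in warm beige, 9334 and 9941 in cold beige, 7938 and 8575 in warm brown, 8831 and 9619 in cold brown, and 12900 and 15090 in warm white. The ribosomal RNA gene Rn45s took 4.32% to 5.72% of the summed CPM in warm beige, 0.436% to 1.15% in cold beige, 0.11% to 0.597% in warm brown, 0.0575% to 0.0994% in cold brown and 2.06% to 2.41% in warm white. The 7 fibroblast markers summed to between 2688 and 5440 CPM in warm beige and 746 and 1121 CPM in cold beige (6 of 7 higher in warm beige), and to between 123 and 250.2 CPM in warm brown and 31.9 and 66.0 CPM in cold brown (7 of 7 higher in warm brown). The 9 endothelial markers summed to between 510.4 and 815 CPM in warm beige and 158.1 and 334.6 CPM in cold beige, with 7 of 9 higher, and the 5 macrophage markers to between 97.1 and 128.8 CPM in warm beige and 33.0 and 55.9 CPM in cold beige, with 2 of 5 higher, a share near the 36% of all rows that passed as higher there. The 5 smooth muscle and pericyte markers summed to between 283.8 and 464.8 CPM in warm beige and 228.3 and 369.7 CPM in cold beige, with 3 of 5 higher and 1 lower. The 11 skeletal muscle markers with a row (of 14 listed) summed to between 71.1 and 340.9 CPM in warm beige, 32.6 and 73.9 CPM in cold beige and 39.4 and 614.8 CPM in warm white, with 10 of 11 higher in warm beige than in cold beige. The part of these markers in the results was not tested.

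The promoters of 6 members are printed because the results turn on these genes: both tissue forms of complex IV that fell most in warm beige, the partner of each, cytochrome c, and the only subunit that passed the test as higher there. Each run is the RefSeq promoter (GRCm38.p6), 250 bases before to 50 bases after the start given there, 5′ to 3′ on the gene's strand. For Cox7a2 and Atp5g3 that start lies inside the annotated span of the gene, which extends further upstream. The windows are chr7:30183921-30184220 on the plus strand for Cox7a1, chr9:79759804-79760103 on the minus strand for Cox7a2, chr7:140900397-140900696 on the minus strand for Cox8b, chr19:7217567-7217866 on the minus strand for Cox8a, chr6:50566520-50566819 on the minus strand for Cycs and chr2:73911277-73911576 on the minus strand for Atp5g3. Capitals mark matches, on either strand, to 6 motifs: AAGGTCA (the site of estrogen-related receptors), CCGGAAG (a site of ETS factors such as GABP), GCATGCG (a core of the NRF1 site), CCAAT (the CCAAT box), TATAAA (the TATA box) and CAGCTG (an E-box).
Cox7a1: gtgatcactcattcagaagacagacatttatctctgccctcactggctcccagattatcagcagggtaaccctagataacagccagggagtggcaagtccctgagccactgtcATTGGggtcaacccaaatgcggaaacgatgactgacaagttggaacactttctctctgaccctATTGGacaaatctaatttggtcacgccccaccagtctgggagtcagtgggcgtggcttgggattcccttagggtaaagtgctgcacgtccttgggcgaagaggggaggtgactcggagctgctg
Cox7a2: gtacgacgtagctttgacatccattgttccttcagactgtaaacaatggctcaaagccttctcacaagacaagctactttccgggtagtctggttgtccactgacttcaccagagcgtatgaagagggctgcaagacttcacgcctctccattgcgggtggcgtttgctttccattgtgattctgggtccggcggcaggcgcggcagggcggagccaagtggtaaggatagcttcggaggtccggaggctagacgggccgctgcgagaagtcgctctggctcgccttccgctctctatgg
Cox8b: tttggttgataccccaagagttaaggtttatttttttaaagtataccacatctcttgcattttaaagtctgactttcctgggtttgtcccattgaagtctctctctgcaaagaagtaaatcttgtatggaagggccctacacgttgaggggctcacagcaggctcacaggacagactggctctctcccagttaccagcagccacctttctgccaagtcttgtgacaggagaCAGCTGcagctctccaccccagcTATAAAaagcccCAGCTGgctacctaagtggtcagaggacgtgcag
Cox8a: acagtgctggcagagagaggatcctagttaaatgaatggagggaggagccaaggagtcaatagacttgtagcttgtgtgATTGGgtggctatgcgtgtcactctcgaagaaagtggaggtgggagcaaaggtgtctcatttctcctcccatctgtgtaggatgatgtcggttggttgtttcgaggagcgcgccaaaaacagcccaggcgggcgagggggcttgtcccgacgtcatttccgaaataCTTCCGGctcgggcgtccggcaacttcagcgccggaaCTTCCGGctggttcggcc
Cycs: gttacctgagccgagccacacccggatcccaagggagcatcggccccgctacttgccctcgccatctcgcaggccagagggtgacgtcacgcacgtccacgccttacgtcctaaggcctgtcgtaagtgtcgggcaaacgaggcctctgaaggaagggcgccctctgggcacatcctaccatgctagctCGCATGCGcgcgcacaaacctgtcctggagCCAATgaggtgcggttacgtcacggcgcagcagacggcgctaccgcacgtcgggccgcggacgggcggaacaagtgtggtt
Atp5g3: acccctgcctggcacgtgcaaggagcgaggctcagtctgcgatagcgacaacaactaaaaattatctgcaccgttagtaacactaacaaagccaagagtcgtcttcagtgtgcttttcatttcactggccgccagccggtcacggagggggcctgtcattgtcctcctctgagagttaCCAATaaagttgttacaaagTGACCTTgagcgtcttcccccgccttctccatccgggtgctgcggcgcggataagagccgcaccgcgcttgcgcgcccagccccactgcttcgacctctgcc

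The windows differ in which motifs they hold. Cox8b was the only window of the 6 with a TATAAA (1 match) or a CAGCTG (2 matches), whereas its partner Cox8a held 2 CCGGAAG and 1 CCAAT. Cox7a1 held 2 CCAAT and no other match, and Cox7a2 held none. In the Cycs window, 2 GCATGCG matches overlap on opposite strands beside 1 CCAAT, and the Atp5g3 window held 1 AAGGTCA and 1 CCAAT. Promoters were found for 73 of the 86 members. A gene was counted when any of its promoters held the motif. AAGGTCA occurred in 11% of these members (8 of 73), against 5.38% of all 27025 genes with a promoter and 3.83% of the 8620 in the table. GCATGCG occurred in 16.4% of members, against 4.01% and 7.6%, and CCGGAAG in 21.9%, against 9.93% and 20.3%. CCAAT was found in 45.2%, against 41.1% and 42.4%, TATAAA in 8.22%, against 15.7% and 8.53%, and CAGCTG in 8.22%, against 18.3% and 17.9%. A match describes letters in the window and not a bound site.

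Nearly the whole nuclear respiratory chain was lower in warm than in cold beige adipocytes. Of the 86 members, 78 passed the limma test as lower in warm than in cold beige and 1 as higher, while 36.9% of all rows passed as lower and 36% as higher. The median log2 fold change of the members was -1.53, against 0.03 over all rows. Members together took 1.54% ± 0.19 of the summed CPM in warm beige and 3.43% ± 0.18 in cold beige (SD, n = 3 and 4), with no overlap (1.33% to 1.70% against 3.24% to 3.68%). In bulk libraries, fewer cells of a type and less mRNA per cell cannot be told apart. Within batch 2 of the batches read from the values, 78 members were lower and 2 higher. Batch 1 held 1 warm beige library, assumed to vary like the other groups, and gave 75 lower and 0 higher.

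In brown adipocytes 46 members passed as lower and 6 as higher in warm than in cold brown, beside 30.1% of all rows lower and 41.2% higher, with a median of -0.27 against 0.13 over all rows. Members took 3.42% ± 0.18 of the summed CPM in warm brown and 3.74% ± 0.10 in cold brown (SD, n = 5 each), and these ranges overlapped (3.18% to 3.66% against 3.63% to 3.86%). The brown split depended on scaling. Quantile normalization gave 37 members lower and 19 higher, totals without the 20 most abundant rows 36 and 16, and median-of-ratios scaling 57 and 5. The median of all rows in brown warming moved to -0.01 under quantile normalization and to 0.26 under totals without the top 20 rows, and in beige warming that total moved it to 0.25, against 0.03 as deposited. Of the genes named here, Cyc1 (-0.06), Uqcrc1 (-0.10), Sdhb (-0.25), Sdhc (-0.08), Cox5b (-0.16), Cox6a1 (-0.06), Cox8a (-0.06) and Cox8b (-0.17) lost their brown call under quantile normalization, and Cox7a2 (-0.30) under totals without the top 20 rows. Within batches, 26 members were lower and 4 higher in batch 1, and 48 and 7 in batch 2. All 7 fibroblast markers were higher in warm than in cold brown (median 2.12), and their part in these counts was not tested.

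The test of the difference between the warming effects (beige minus brown) found 76 members with a lower effect in beige and 1 with a higher effect, beside 32.4% and 14.8% of all rows. Its median was -1.17 over the members and -0.17 over all rows. The beige effect lay below the brown effect in 83 of the 86 members, and the other 3 were Atp5g3, Ndufa4l2 and Ndufab1. The beige and brown comparisons share no library, and across the 86 members the log2 fold changes had a Pearson correlation of 0.507 and a Spearman correlation of 0.624, given as a description since members share libraries. In the plot of the effects in beige against brown, Cox7a1 and Cox8b lie farthest left. The lowest difference between the effects was that of Cox6b2 (-4.78), a low row with 1 warm beige library at the floor.

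**Figure D1:**
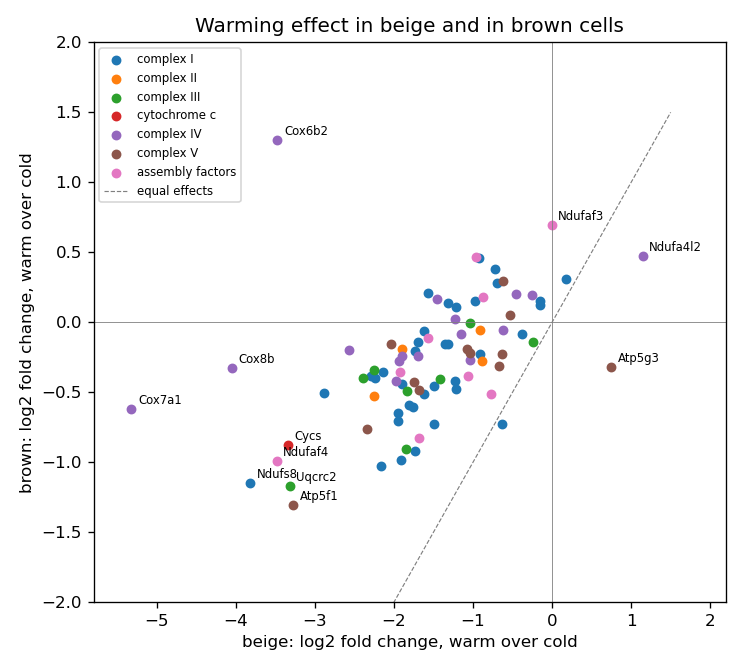
Each point is 1 of the 86 members, coloured by complex, with its log2 fold change of warm over cold in beige cells on the x axis and in brown cells on the y axis; the dashed line marks equal effects. Of the 86 points, 83 lie on the side of the line where the beige effect is lower, and Cox7a1 (-5.32 in beige) lies farthest left.

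All 5 complexes fell in warm beige cells. The median log2 fold change there was -1.53 for complex I, -1.40 for complex II, -1.84 for complex III, -1.58 for complex IV and -1.06 for complex V. Members spread widely within each complex, between -3.82 and 0.18 in complex I, -2.25 and -0.89 in II, -3.32 and -0.24 in III, -5.32 and 1.14 in IV, and -3.27 and 0.75 in V, so the ranges of the complexes overlap. In brown cells the medians were -0.37 for complex I, -0.23 for II, -0.40 for III, -0.14 for IV and -0.27 for V. Members are not replicates, so the complexes were not tested against each other.

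**Figure D2:**
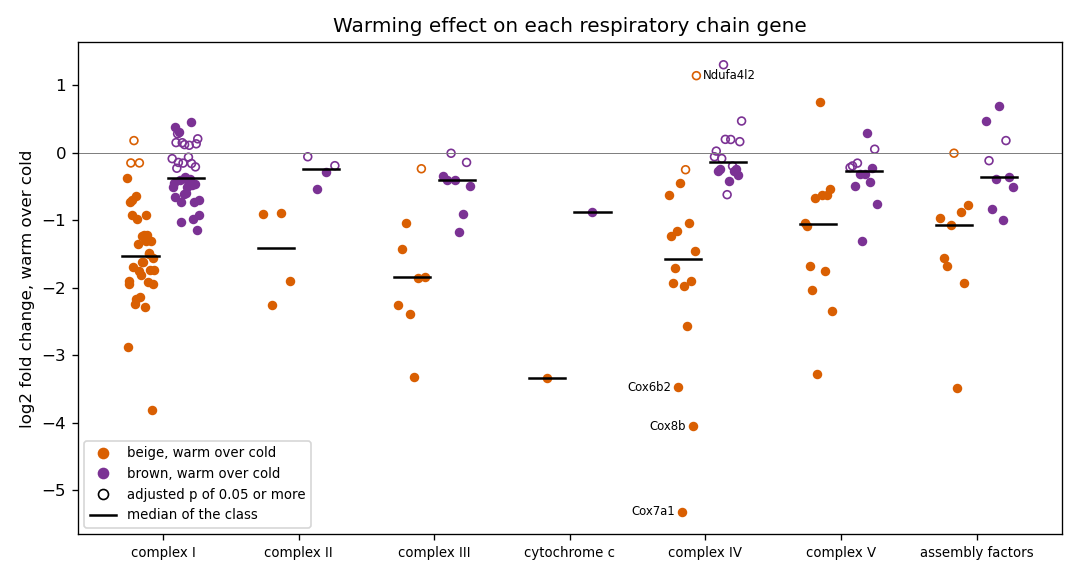
Log2 fold change of warm over cold for each member, by complex, in beige and in brown cells; filled points have a limma adjusted p under 0.05, open points do not, and lines mark class medians. In beige cells the class medians lie between -3.34 (cytochrome c, a class of 1 gene) and -1.06 (complex V), and in brown cells between -0.87 and -0.14.

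Levels were also taken per library, as the mean log2 CPM of a complex's genes. Relative to the warm white mean, the mean log2 level of the complex I genes was 0.42 ± 0.26 in warm beige and 1.88 ± 0.14 in cold beige (SD, n = 3 and 4), and 1.77 ± 0.08 in warm brown and 2.06 ± 0.10 in cold brown (SD, n = 5 each). For complex III it was 0.43 ± 0.19 in warm beige and 2.22 ± 0.17 in cold beige, and 1.85 ± 0.10 in warm brown and 2.33 ± 0.08 in cold brown. For complex IV it was 1.00 ± 0.12 in warm beige and 2.75 ± 0.15 in cold beige, and 2.72 ± 0.05 in warm brown and 2.74 ± 0.15 in cold brown. In complex IV, 3 of the 16 genes in warm beige lay far above white (4.90 for Cox7a1, 3.64 for Ndufa4l2 and 2.62 for Cox8b), the other 13 lay between -0.45 and 1.09, and the median was 0.60. The brown means of complex IV include low rows with higher values after warming, though neither passed. Cox6b2 averaged 2.69 log2 CPM in warm and 1.38 in cold brown, and Ndufa4l2 0.86 and 0.39. The median brown change of complex IV genes was -0.14. Brown cells had separate complex III ranges (1.74 to 2.00 warm, 2.22 to 2.42 cold). The ranges were also separate, by narrower margins, in complexes I (1.66 to 1.84 warm, 1.92 to 2.17 cold), II (1.93 to 2.23 warm, 2.25 to 2.46 cold) and V (1.19 to 1.42 warm, 1.48 to 1.70 cold). Only the complex IV ranges overlapped (2.65 to 2.77 warm, 2.52 to 2.91 cold). As a share of summed CPM, complex III genes took 0.472% ± 0.026 in warm brown and 0.633% ± 0.009 in cold brown, and complex IV genes 0.519% ± 0.030 in warm brown and 0.503% ± 0.030 in cold brown.

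**Figure D3:**
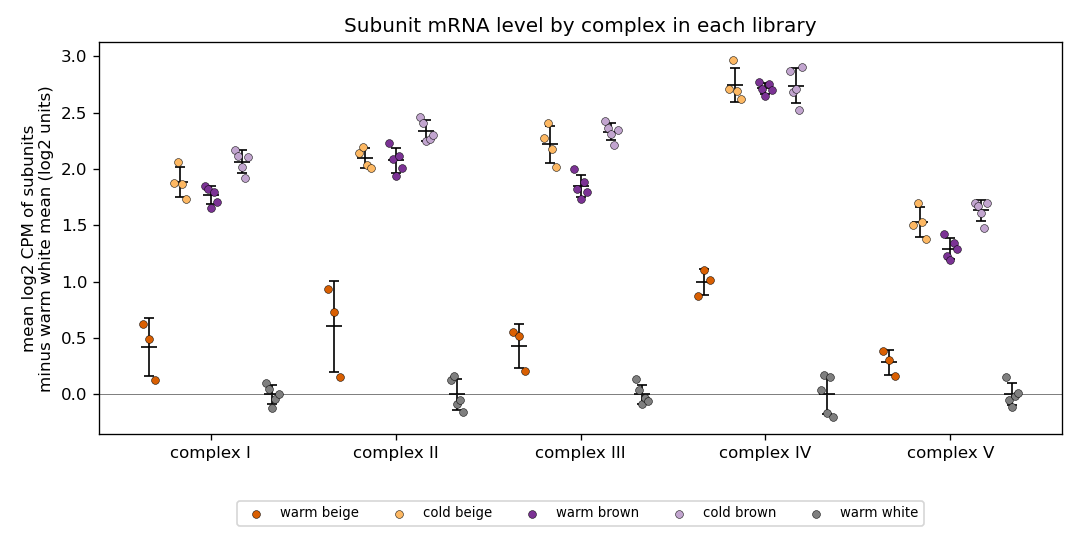
Mean log2 CPM of the genes of each complex in every library, minus the warm white mean; points are libraries, and bars give the group mean and SD. Warm beige libraries lie below every cold beige and brown library in all 5 complexes, and the gap between warm and cold brown libraries is widest in complex III, while they overlap in complex IV.

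Complex I takes electrons from NADH. In warm beige cells 33 of its 36 genes passed as lower and none as higher, beside 36.9% and 36% of all rows. In warm brown cells 19 passed as lower and 3 as higher, beside 30.1% and 41.2% of all rows. The 3 that did not pass in beige were Ndufa7, Ndufb3 and Ndufa2, the last named after its values were seen (-0.15 ± 0.16). The 7 nuclear core subunits, which carry the flavin and iron-sulfur clusters, were all lower in warm beige (median -1.57), as were 26 of the 29 accessory genes (median -1.50). Ndufs8, a core iron-sulfur subunit, fell most. It had 4.13, 3.89 and 4.29 log2 CPM in warm beige, against 7.46, 7.99, 8.08 and 8.15 in cold beige, and 7.44, 7.82, 7.30, 7.68 and 7.54 in warm brown, against 8.78, 8.76, 8.64, 8.62 and 8.72 in cold brown. The warm and cold libraries of Ndufs8 did not overlap in either tissue. The log2 fold change was -3.82 ± 0.18 (SE, limma adjusted p = 3.07e-14) in beige and -1.15 ± 0.15 (adjusted p = 5.78e-07) in brown, and the effects differed by -2.67 ± 0.24 (adjusted p = 6.14e-09).

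The other core subunits named here lost less. Ndufs1, another iron-sulfur subunit, fell by 1.31 in beige (limma adjusted p = 3.41e-10) and gave -0.16 in brown (adjusted p = 0.121). Ndufv1, which binds the flavin and NADH, had 8.23, 8.11 and 7.69 log2 CPM in warm beige, against 9.73, 9.64, 9.52 and 9.41 in cold beige, and 10.06, 9.81, 9.80, 9.85 and 9.78 in warm brown, against 9.74, 9.66, 9.57, 9.74 and 9.55 in cold brown. The warm libraries of Ndufv1 were thus all lower than the cold in beige and all higher in brown, though the brown change of 0.21 ± 0.10 did not pass (adjusted p = 0.0553; 0.34 and past the threshold with totals without the top 20 rows) while the beige change of -1.56 ± 0.12 did (adjusted p = 4.21e-11). Among accessory genes, Ndufa10 fell by 2.88 in beige and 0.51 in brown, and Ndufa9 by 2.17 and 1.03. All 4 of these changes passed the test.

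A few complex I genes behaved otherwise. Ndufc2, an accessory subunit of the membrane arm, had 7.02, 6.78 and 6.43 log2 CPM in warm beige, against 7.67, 7.90, 7.62 and 7.47 in cold beige, and 8.07, 7.85, 7.83, 7.91 and 7.85 in warm brown, against 7.54, 7.53, 7.31, 7.30 and 7.53 in cold brown. It fell by 0.92 ± 0.12 in beige (limma adjusted p = 3.98e-07) and rose by 0.46 ± 0.10 in brown (adjusted p = 0.000264), without overlap in either tissue. Ndufa13, an accessory subunit also known as GRIM-19, fell by 0.73 ± 0.10 in beige and rose by 0.38 ± 0.09 in brown (adjusted p = 1.59e-06 and 0.000413). Ndufa7 rose in brown (0.31 ± 0.08, adjusted p = 0.0017) and gave 0.18 ± 0.10 in beige (adjusted p = 0.0952), which passed without cold beige replicate 2 (0.23) or warm beige replicate 3 (0.29). The effects of Ndufa7 did not pass as different between the tissues (-0.12 ± 0.13, adjusted p = 0.438). Ndufb3 gave -0.15 ± 0.12 in beige and 0.12 ± 0.10 in brown, and neither passed. Ndufab1, the mitochondrial acyl carrier protein, fell by 0.64 ± 0.16 in beige and 0.73 ± 0.13 in brown, with a difference of 0.09 ± 0.21 (adjusted p = 0.75). Without warm beige 3 the beige change of Ndufab1 was -0.36 and the difference 0.37 (adjusted p = 0.0798).

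Complex II links the citric acid cycle to the chain and is the only complex whose subunits are all nuclear. All 4 genes passed as lower in warm beige, beside 36.9% of all rows, and 2 passed as lower in warm brown, beside 30.1%. Sdhb, the iron-sulfur subunit, had 7.57, 7.13 and 6.53 log2 CPM in warm beige, against 9.15, 9.45, 9.38 and 9.34 in cold beige, and 9.57, 9.54, 9.13, 9.44 and 9.30 in warm brown, against 10.10, 10.01, 9.82, 9.81 and 9.89 in cold brown. No warm library reached the cold range in either tissue, and the change was -2.25 ± 0.17 in beige (limma adjusted p = 7.42e-11) and -0.53 ± 0.14 in brown (adjusted p = 0.00206). The membrane anchor Sdhd fell by 1.90 in beige (adjusted p = 4.22e-12) and gave -0.19 in brown (adjusted p = 0.0959). The flavoprotein Sdha fell by 0.91 in beige (adjusted p = 3.25e-07) and gave -0.06 in brown (adjusted p = 0.602), where quantile normalization turned it to 0.25. The other anchor, Sdhc, fell by 0.89 in beige (adjusted p = 1e-05). Its brown value of -0.28 (adjusted p = 0.0426) no longer passed when any of cold brown 1, 2 or 5 or warm brown 2 to 5 was left out (-0.29 to -0.25), and its difference of -0.61 became -0.36 and no longer passed without warm beige 3.

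Complex III hands electrons to cytochrome c. In warm beige 7 of its 8 genes passed as lower, beside 36.9% of all rows, and in warm brown 6 did, beside 30.1%. Uqcrc2, a core protein of the matrix side, had 6.30, 6.01 and 6.08 log2 CPM in warm beige, against 9.10, 9.47, 9.60 and 9.63 in cold beige, and 9.07, 9.35, 8.87, 9.24 and 9.08 in warm brown, against 10.36, 10.31, 10.26, 10.26 and 10.29 in cold brown. The groups did not overlap in either tissue, and the change was -3.32 ± 0.13 in beige (limma adjusted p = 1.05e-15) and -1.17 ± 0.11 in brown (adjusted p = 2.03e-09). Its partner Uqcrc1 fell by 2.39 ± 0.12 in beige and by 0.40 ± 0.10 in brown. Cyc1, the cytochrome c1 subunit, fell by 2.25 ± 0.10 and 0.34 ± 0.09.

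The Rieske iron-sulfur protein Uqcrfs1 had the second lowest brown change of complex III. It had 8.72, 8.75 and 8.12 log2 CPM in warm beige, against 10.59, 10.51, 10.26 and 10.16 in cold beige, and 9.81, 9.53, 9.57, 9.65 and 9.51 in warm brown, against 10.57, 10.62, 10.51, 10.42 and 10.47 in cold brown. Both tissues were without overlap, with a fall of 1.85 ± 0.12 in beige and 0.90 ± 0.10 in brown (limma adjusted p = 1.01e-11 and 6.67e-08). The small subunit Uqcr11 fell by 1.03 ± 0.12 in beige and gave -0.01 ± 0.10 in brown. Uqcrh, the acidic hinge protein that binds cytochrome c1, was the exception in beige, with -0.24 ± 0.18 (adjusted p = 0.244), although it passed at -0.39 without cold beige 4. In brown it gave -0.14 ± 0.15 (adjusted p = 0.403).

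Cytochrome c, a single gene, fell further than any complex's median. Some single members of the complexes fell further in beige, among them Ndufs8 (-3.82) and Cox7a1 (-5.32). Cycs had 3.06, 3.05 and 2.60 log2 CPM in warm beige, against 6.33, 6.35, 6.23 and 6.07 in cold beige, and 5.79, 5.65, 5.39, 5.70 and 5.45 in warm brown, against 6.45, 6.61, 6.48, 6.38 and 6.43 in cold brown. The warm white libraries had 2.98, 2.66, 2.77, 2.85 and 2.87. The warm beige libraries spanned the white range, while no warm library overlapped the cold ones in either tissue. The change was -3.34 ± 0.12 in beige (limma adjusted p = 1.63e-16) and -0.87 ± 0.10 in brown (adjusted p = 4.13e-08), and the effects differed by -2.47 ± 0.15 (adjusted p = 2.43e-11).

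Complex IV reduces oxygen to water. In warm beige 14 of its 16 genes passed as lower and none as higher, beside 36.9% and 36% of all rows. In warm brown 6 passed as lower and none as higher, beside 30.1% and 41.2%, so the count of lower genes is near the share of all rows. The widely expressed subunits Cox5a and Cox5b fell by 1.23 ± 0.16 and 1.94 ± 0.11 in beige, and gave 0.03 ± 0.13 and -0.28 ± 0.09 in brown, where Cox5b passed (limma adjusted p = 0.00979) and Cox5a did not (adjusted p = 0.868). Cox6a1 fell by 1.70 ± 0.09 in beige and 0.24 ± 0.08 in brown (adjusted p = 2.11e-13 and 0.0064). Cox4i1, a large nuclear subunit, fell by only 0.62 ± 0.13 in beige (adjusted p = 0.00027) and gave -0.06 ± 0.11 in brown (adjusted p = 0.651), with 0.23 in brown under quantile normalization. Its difference between the tissues, -0.56 (adjusted p = 0.0105), became -0.39 and did not pass without warm beige 3. Cox7a2l gave -0.25 ± 0.18 in beige (adjusted p = 0.21) and 0.20 ± 0.15 in brown (adjusted p = 0.233). Without warm beige 1, which had the highest value of its group, Cox7a2l passed in beige at -0.55. Leaving out warm beige 3, which had the lowest, turned the change to 0.055, so its sign depended on single libraries.

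The tissue forms Cox7a1 and Cox8b had the lowest beige fold changes of the 86 members. Cox7a1, at chromosome 7 from 30184171 to 30186030, had 2.97, 2.12 and 2.30 log2 CPM in warm beige, against 7.91, 7.94, 7.61 and 7.69 in cold beige. In brown it had 7.52, 7.54, 6.85, 7.16 and 6.84 warm, against 8.12, 8.10, 7.73, 7.43 and 7.63 cold. Warm white libraries had -2.23, -0.65, -2.28, -1.41 and -5.60, the last of which lies at the floor of the table. Warm beige lay between white and every cold or brown library, without overlap, whereas warm and cold brown overlapped. Cox7a1 fell by 5.32 ± 0.64 in beige (limma adjusted p = 1.46e-07), and its brown change of -0.62 ± 0.53 did not pass (adjusted p = 0.304). The brown change did pass in a fit of the brown groups alone (adjusted p = 0.00364) and with 1 CPM added (adjusted p = 0.00211), with a fold change of -0.62 in both. In beige the change was -5.23 within batch 2. Of the skeletal muscle markers, 10 of 11 were higher in warm beige than in cold beige, and their part in the Cox7a1 values was not tested.

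Cox8b, also on chromosome 7 (140898942 to 140900446), repeated this order with less spread. It had 4.42, 4.37 and 4.49 log2 CPM in warm beige, against 8.45, 8.78, 8.49 and 8.20 in cold beige, and 8.30, 8.13, 8.03, 8.18 and 8.09 in warm brown, against 8.51, 8.43, 8.56, 8.33 and 8.55 in cold brown. Warm white had 2.09, 1.71, 2.07, 1.42 and 1.76. The beige change of -4.05 ± 0.13 (limma adjusted p = 5.41e-17) and the brown change of -0.33 ± 0.11 (adjusted p = 0.00948) both passed, and they differed by -3.72 ± 0.17 (adjusted p = 4e-13). In the cold, beige and brown levels of Cox8b differed by 0.00 ± 0.11 and those of Cox7a1 by -0.01 ± 0.57, and neither passed.

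The widely expressed partners also fell in beige, by 1.98 ± 0.14 for Cox7a2 and 1.90 ± 0.10 for Cox8a, and in brown by 0.42 ± 0.12 and 0.24 ± 0.08, all past the threshold. The balance of each pair was therefore taken within libraries, as tissue form minus partner. Cox7a1 minus Cox7a2 averaged -3.18 ± 0.74 log2 units in warm beige and 0.16 ± 0.31 in cold beige (SD, n = 3 and 4), and -0.37 ± 0.32 in warm brown and -0.18 ± 0.28 in cold brown (SD, n = 5 each). Cox8b minus Cox8a averaged -2.38 ± 0.07 in warm beige and -0.22 ± 0.17 in cold beige, and -0.60 ± 0.06 in warm brown and -0.51 ± 0.09 in cold brown. In beige, both balances gave an exact two-sided permutation p = 0.0286, the smallest that 3 against 4 libraries allow, and adjusted p = 0.0762 over the 8 balances tested, so neither passed. That p could pass only if several of the 8 were as low, so the test leaves the beige balances undecided. Warm and cold beige libraries did not overlap, with -3.73 to -2.34 against -0.17 to 0.54 for Cox7a1 and -2.44 to -2.31 against -0.44 to -0.07 for Cox8b. In brown the exact permutation p was 0.333 for Cox7a1 and 0.111 for Cox8b (adjusted p = 0.381 and 0.148).

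**Figure D4:**
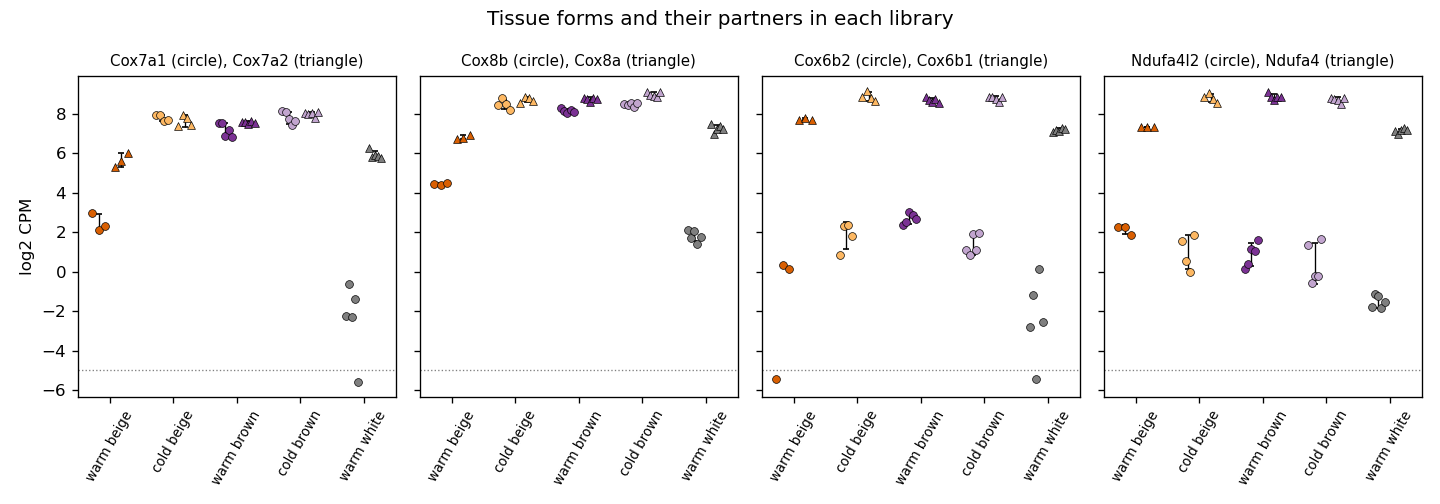
Log2 CPM in every library of 4 tissue or alternative forms (circles) and their partners (triangles) in the 5 groups; bars are mean ± SD, left out where a library lies at the floor (dotted line). Circles of Cox7a1 and Cox8b in warm beige sit between warm white and all cold and brown libraries, while the partner means in warm beige lie within 0.54 of the warm white means.

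The other forms, Cox6b2 and Ndufa4l2, were low rows, with every library at or below 3.00 log2 CPM. Cox6b2, a form known from testis, had -5.42 (at the floor), 0.36 and 0.13 log2 CPM in warm beige, against 0.85, 2.33, 2.35 and 1.80 in cold beige, and 2.37, 2.53, 3.00, 2.86 and 2.67 in warm brown, against 1.08, 0.82, 1.92, 1.10 and 1.98 in cold brown. The warm libraries were all below the cold in beige and all above them in brown. The beige change of -3.48 ± 1.07 passed (limma adjusted p = 0.00587) but rested on the library at the floor, without which it was -1.59 and did not pass, as in batch 1 (-1.20). With 1 CPM added it was -1.45. In brown the change was 1.31 ± 0.88 and did not pass (adjusted p = 0.189), though it did with 1 CPM added (1.03, adjusted p = 0.000876). Against its partner Cox6b1, which fell by 1.15 ± 0.10 in beige and gave -0.08 ± 0.08 in brown, the balance moved by -2.32 in beige (exact permutation p = 0.0857; -0.45 without the library at the floor) and by 1.39 in brown (exact permutation p = 0.00794, the smallest that 5 against 5 allow, adjusted p = 0.0635). With 8 balances tested that smallest p could not pass alone, so the test leaves the brown balance undecided.

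Ndufa4l2, a paralog of Ndufa4 known to respond to hypoxia, was the member with the highest log2 fold change in beige. It had 2.24, 2.28 and 1.86 log2 CPM in warm beige, against 1.55, 0.54, -0.01 and 1.85 in cold beige, and 0.12, 0.39, 1.15, 1.06 and 1.59 in warm brown, against 1.34, -0.60, -0.23, -0.23 and 1.67 in cold brown. The beige groups were separate by a narrow margin and the brown groups overlapped. The beige change of 1.14 ± 0.52 did not pass (limma adjusted p = 0.0541), and passed without cold beige 1 (1.33) or 4 (1.43) and with 1 CPM added (0.81). The pericyte marker Rgs5 was also higher in cold beige 1 and 4 (7.00 and 6.92 log2 CPM) than in 2 and 3 (4.59 and 5.02), and in cold brown 1 and 5 (7.41 and 7.56) than in 2 to 4 (4.16 to 4.71), the same libraries as Ndufa4l2, and its part in this was not tested. Ndufa4 itself, once counted in complex I and now placed in complex IV, fell by 1.46 ± 0.10 in beige and gave 0.17 ± 0.08 in brown (adjusted p = 1.45e-11 and 0.0795).

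Complex V makes ATP from the returning protons. In warm beige 11 of its 12 genes passed as lower and 1 as higher, beside 36.9% and 36% of all rows. In warm brown 7 passed as lower and 1 as higher, beside 30.1% and 41.2%. Its catalytic head holds Atp5a1 and Atp5b, the alpha and beta subunits. Atp5b had 10.90, 10.87 and 10.23 log2 CPM in warm beige, against 11.84, 11.79, 11.71 and 11.64 in cold beige, and 11.94, 11.81, 11.63, 11.78 and 11.64 in warm brown, against 12.06, 11.99, 11.87, 11.96 and 11.89 in cold brown. Beige libraries separated and brown ones overlapped, with changes of -1.08 ± 0.14 (limma adjusted p = 3.45e-07) and -0.19 ± 0.11 (adjusted p = 0.133), the second turning to 0.43 under quantile normalization. Atp5a1 gave -1.04 ± 0.13 in beige and -0.22 ± 0.11 in brown (adjusted p = 1.74e-07 and 0.0697). Atp5o, a stalk subunit known as OSCP, fell by 2.35 ± 0.14 and 0.76 ± 0.11. The membrane subunit Atp5l fell by 0.53 ± 0.14 in beige and gave 0.05 ± 0.12 in brown, and its difference of -0.58 (adjusted p = 0.0138) became -0.42 and did not pass without warm beige 3. Atp5f1, the stalk subunit b, had the largest beige fall of the complex (3.27 ± 0.51), on a row between -1.94 and 2.41 log2 CPM. Within batch 1 the beige change of Atp5f1 was -1.80 and did not pass. Its difference of -1.97 between the tissues became -1.66 or -1.63 and did not pass without warm beige 1 or 2.

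Atp5g3 was the only subunit that passed as higher in warm beige. It encodes subunit c, which forms the membrane ring of the synthase, and the other 2 genes for the same mature protein, Atp5g1 and Atp5g2, were not analysed here. Atp5g3 had 8.46, 8.43 and 7.86 log2 CPM in warm beige, against 7.61, 7.59, 7.48 and 7.33 in cold beige, and 7.45, 7.40, 7.35, 7.43 and 7.35 in warm brown, against 7.84, 7.74, 7.61, 7.67 and 7.72 in cold brown. The warm white libraries had 7.94, 8.20, 7.87, 7.95 and 8.24. Warm libraries were all above the cold in beige and all below them in brown. The change was 0.75 ± 0.12 in beige (limma adjusted p = 4.84e-06) and -0.32 ± 0.10 in brown (adjusted p = 0.0049), and the effects differed by 1.07 ± 0.15 (adjusted p = 4.23e-06). The beige rise was 0.39 in batch 1, where it did not pass, and 0.91 in batch 2. Atp5h, the stalk subunit d, went the other way, with -0.63 ± 0.14 in beige and 0.29 ± 0.12 in brown (adjusted p = 0.000467 and 0.0313). The brown rise of Atp5h did not pass without cold brown 3, cold brown 4 or warm brown 1 (0.23 to 0.27) or under median-of-ratios scaling (0.18).

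Assembly factors put the complexes together and are no part of the finished enzymes. Of the 9 caught by the name rule, 8 passed as lower in warm beige and none as higher, beside 36.9% and 36% of all rows. In warm brown 5 passed as lower and 2 as higher, beside 30.1% and 41.2%. The exception in beige, Ndufaf3, gave -0.01 ± 0.12 there and rose by 0.70 ± 0.10 in brown (limma adjusted p = 9.65e-07). Atp5s, also known as coupling factor B, fell by 0.96 ± 0.12 in beige and rose by 0.47 ± 0.10 in brown (adjusted p = 2.33e-07 and 0.000243). Ndufaf4, a complex I factor singled out after its values were seen, fell by 3.49 ± 0.16 in beige and 0.99 ± 0.13 in brown. Other assembly factors were taken from lists by complex. In warm beige the count passing as lower was 6 of 7 for complex I, 4 of 4 for II, 6 of 6 for III, 13 of 14 for IV and 3 of 4 for V, and in warm brown 7, 3, 3, 9 and 2. The shares of all rows were 36.9% in beige and 30.1% in brown. The brown counts of 3 of 6 for III and 2 of 4 for V are too small to set apart from that share. Cox14, a complex IV factor, passed as higher in both tissues (0.61 in beige, 0.94 in brown), and Atpaf1, a complex V factor, in brown (0.41), both named after their values were seen.

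The listed regulators of the chain did not move as a block. Of 14, 9 passed as lower and 3 as higher in warm beige, 7 and 3 in warm brown, and 6 had a lower effect in beige than in brown, with none higher. Over all rows 36.9% were lower and 36% higher in beige warming, 30.1% and 41.2% in brown warming, and 32.4% and 14.8% in the difference, so the 6 of 14 are near the background share. Ppargc1b, a coactivator of mitochondrial genes, fell by 2.89 in beige (limma adjusted p = 1.16e-11) and gave 0.27 in brown (adjusted p = 0.148). Its relative Ppargc1a fell by 1.96 in beige and 0.68 in brown, and Esrra, the estrogen-related receptor alpha, by 1.79 and 0.78. Gabpa, the DNA-binding part of GABP, fell by 1.40 and 0.28. The mitochondrial transcription genes Tfb2m and Polrmt fell by 2.22 and 1.61 in beige and 1.00 and 0.63 in brown. Esrrg gave -2.22 in beige, which passed, and 0.01 in brown. Tfam and Tfb1m fell by 0.53 and 0.49 in beige and 0.26 and 0.45 in brown. Pprc1 rose by 0.73 in beige and 1.04 in brown, and Gabpb1 by 0.35 and 0.26. Nrf1 gave 0.15 in beige and -0.13 in brown, and Yy1 gave 0.13 and 0.06, and none of these passed. Atpif1, the inhibitor that binds the ATP synthase head, rose by 1.22 in beige and 0.86 in brown (adjusted p = 4.53e-09 and 6.61e-08).

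Of the 86 members, 30 passed as lower in cold beige than in cold brown and 3 as higher, beside 27.2% and 34.7% of all rows, with a median of -0.15 against 0.05 over all rows. The split was 21 lower and 8 higher under quantile normalization, 21 and 9 under totals without the 20 most abundant rows, and 46 and 2 under median-of-ratios scaling. Without cold beige 4, 10 passed as higher, and without cold brown 1 and 5, left out after seeing the data for their high endothelial and Rgs5 levels, 18 passed as lower and 5 as higher. Within batches, 27 were lower and 0 higher in batch 1, and 18 and 14 in batch 2. In this comparison 7 of 7 fibroblast markers (median 4.30), 5 of 5 macrophage markers (2.18) and 7 of 9 endothelial markers (1.42) were higher in cold beige, and their part in the result was not tested. The lowest differences were those of Atp5sl (-1.22 ± 0.13), Ndufv3 (-0.93 ± 0.17), Atp5e (-0.85 ± 0.09) and Ndufb2 (-0.85 ± 0.18), named after their values were seen, and Uqcrc2 (-0.85 ± 0.11). Those that passed as higher were Ndufa13 (0.22 ± 0.09) and, named after their values were seen, Ndufa2 (0.49 ± 0.14) and Ndufa5 (0.48 ± 0.15).

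After warming the 2 cell types stood apart. Here 77 members passed as lower in warm beige than in warm brown and 2 as higher, beside 40.1% and 35.3% of all rows, with a median of -1.30 against -0.05 over all rows. The 2 that passed as higher in warm beige were Atp5g3 (0.85 ± 0.11, limma adjusted p = 3.61e-07) and Ndufa4l2 (1.26 ± 0.50, adjusted p = 0.0265). The lowest differences were -4.72 ± 0.62 for Cox7a1, -4.33 ± 1.02 for Cox6b2, which includes the library at the floor, and -3.72 ± 0.13 for Cox8b. Genes that did not pass included Ndufb3 (-0.05 ± 0.12), Ndufab1 (-0.05 ± 0.15) and Uqcrh (0.22 ± 0.17). In this comparison 10 of 11 skeletal muscle markers (median 7.10) were higher in warm beige and 1 was lower. Also higher were 7 of 7 fibroblast (3.44), 7 of 9 endothelial (1.90), 4 of 5 macrophage (2.55) and 4 of 5 smooth muscle and pericyte markers (3.23). Rn45s took 4.32% to 5.72% in warm beige against 0.11% to 0.597% in warm brown. Their part in the result was not tested.

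Relative to warm white adipocytes, warm beige cells had a small excess of most subunits. Of the 86 members, 54 passed as higher in warm beige than in warm white and 2 as lower, beside 17% and 22.4% of all rows, with a median of 0.41 against -0.04 over all rows. In the same comparison 9 of 9 endothelial markers (median 3.53) and 4 of 5 smooth muscle and pericyte markers (median 3.70) were higher in warm beige, 6 of 8 adipocyte markers were lower (median -0.58), and Rn45s took 4.32% to 5.72% in warm beige against 2.06% to 2.41% in warm white. Their part in the result was not tested. The count of higher members was 41 without warm beige 1 or without warm beige 2 and 60 without warm beige 3. It was 39 when the 2 groups were fitted alone, 5 in batch 1, where warm beige had only replicate 3, and 62 in batch 2. For comparison, 84 passed as higher and 1 as lower in cold beige against the same white libraries (38% and 37.2% of all rows, median 1.85), and 83 and 1 in warm brown (40.9% and 38.1%, median 1.79). The lower gene was Atp5g3 in both (-0.54 ± 0.10 in cold beige, -0.64 ± 0.09 in warm brown). These 3 comparisons share the white libraries.

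By complex, the excess of warm beige over white passed for 27 of 36 genes of complex I (median 0.42), 4 of 4 of II (0.61), 6 of 8 of III (0.42), 10 of 16 of IV (0.60) and 6 of 12 of V (0.33), and not for Cycs (0.08 ± 0.11, limma adjusted p = 0.615). Of the 9 assembly factors caught by the name rule, 1 passed as higher and 1, Ndufaf4, as lower (-0.49 ± 0.15). Over all rows 17% passed as higher and 22.4% as lower. Cox7a1 (4.90 ± 0.62), Ndufa4l2 (3.64 ± 0.50) and Cox8b (2.62 ± 0.13) had the highest excess. The Ndufa4l2 value stands beside the median of 3.70 of the smooth muscle and pericyte markers, among them Rgs5. The Cox7a1 value includes a white library at the floor. Their partners showed no such excess, with -0.27 ± 0.14 for Cox7a2 (adjusted p = 0.123), 0.18 ± 0.10 for Ndufa4 (adjusted p = 0.136) and -0.45 ± 0.09 for Cox8a, which passed as lower (adjusted p = 0.000567). Warm beige Cox8a was 6.73, 6.75 and 6.93 log2 CPM, against 7.46, 6.98, 7.23, 7.36 and 7.24 in warm white, without overlap. Ndufs8 (-0.04 ± 0.18) and Uqcrc2 (0.17 ± 0.12), both among the deepest falls on warming, did not pass against white.

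**Figure D5:**
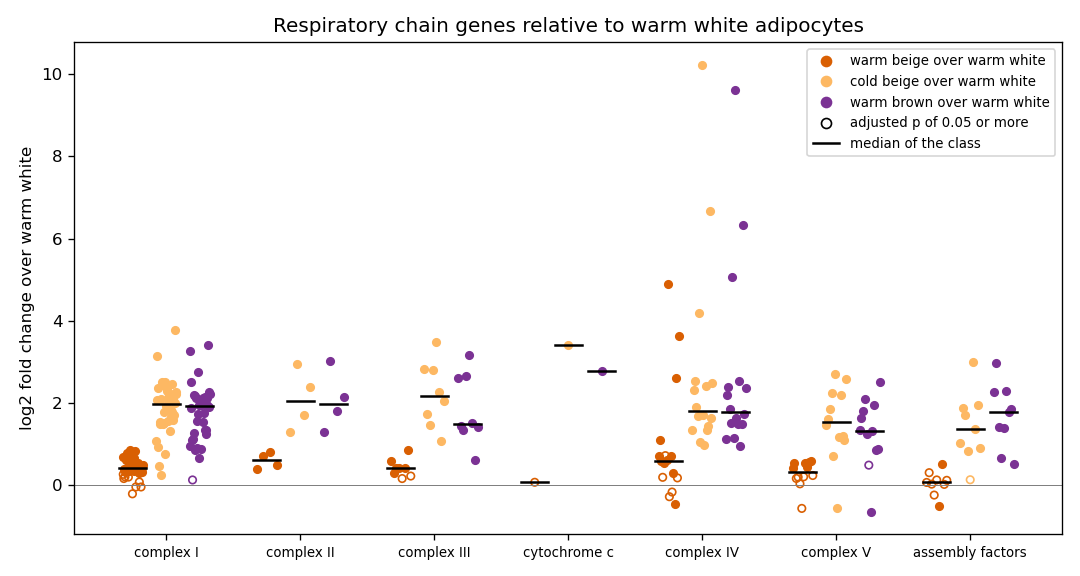
Log2 fold change over warm white of each member, by complex, for warm beige, cold beige and warm brown; filled points have a limma adjusted p under 0.05, open points do not, and lines mark class medians. Warm beige medians lie between 0.07 and 0.61, well below those of cold beige and warm brown, and Cox7a1, Cox8b and Ndufa4l2 stand above the other warm beige points.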

How the data were processed

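The authors deposited 1 table of log2 CPM per gene for 22 TRAP libraries (11603 rows, 11544 distinct symbols, values from -7.21 to 15.78). The unit was read from the table's name and values, since no header states it. HISAT2, Picard, featureCounts, edgeR and mm10 are named in the submitters' processing notes, without versions or roles. Strand use in counting was not given in the sources used here, so reads of overlapping genes, paralogs and pseudogenes could be shared. The chromatin libraries of the series were not analysed here.

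All 22 libraries entered 1 limma-trend fit of 5 group means (limma 3.58.1, R 4.3.3, 17 residual degrees of freedom, no covariate, two-sided). P-values were adjusted by Benjamini-Hochberg over all 11603 rows, with a threshold of 0.05. All rows passed the filter of 1 CPM in 3 libraries. Values at or below -5 log2 were treated as the floor of the table, and no handling of zeros is stated. The fit was tested on simulated data. Tissue form balances were tested by exact permutation over libraries and adjusted over 8 tests.

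The labels name no batch. The table's name mentions one, and rows at the floor take 2 offset levels, as they would after a batch term was removed, though no source states that step. These rows (9 in brown, 2 in inguinal libraries) place 10 libraries in batch 1 and 12 in batch 2. With the brown and inguinal libraries joined this way the largest remaining batch coefficient was 0.005, against 1.90 joined the other way. A batch term removed beforehand is not counted in the 17 residual degrees of freedom, so p-values may be somewhat too small.

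The genes named are the form pairs, a chosen set of core members (Cycs, Cyc1, Sdha to Sdhd, Uqcrfs1, Ndufs1, Ndufv1, Ndufab1, Cox4i1, Cox5a, Cox5b, Cox7a2l, Atp5a1, Atp5b and Atp5g3), in each complex the 2 lowest and the 2 highest log2 fold changes in each warming comparison, and every member that passed as higher in one, 43 genes in all. Of the genes this rule lists, Cox4i2, Cox6a2, Atp5g1 and Atp5g2 were not analysed here. The members and lists were chosen with earlier results of these data known. Alternatives were other pseudocounts, a stricter filter, other scalings, replicate blocks, library weights, separate fits, single batches and each library left out.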

Additional observations from a re-analysis of the deposited data

Results flagged for a closer look

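Within groups of 4 or 5 libraries, a library was marked when its gap to its nearest neighbour took most of the group's range by Dixon's critical value, which chance exceeds in about 1 of 20 groups. Of 172 such groups of named genes, 6 were marked. Warm brown 1 stood above the other warm brown libraries in 5 genes, with 10.33 log2 CPM for Cox4i1, 9.02 for Cox5a, 6.50 for Ndufab1, 10.06 for Ndufv1 and 8.81 for Uqcrh. Warm brown 2 stood below the others in Atp5f1, at -1.16 log2 CPM.

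The warming effect differed between beige and brown cells, by limma's test of the difference, in 76 members with a lower and 1 with a higher effect in beige. In 5 genes, changes that both passed went in opposite directions. The beige effect minus the brown effect was 1.07 for Atp5g3, which was higher in warm beige and lower in warm brown. It was -1.38 for Ndufc2, -1.11 for Ndufa13, -0.92 for Atp5h and -1.43 for Atp5s, which were lower in warm beige and higher in warm brown.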

How the results depend on the processing

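The split of members in beige warming (78 lower, 1 higher) and in the tissue difference (76 and 1) kept its direction under every alternative run. Leaving out each library gave 77 to 79 lower and 1 to 2 higher in beige warming, 43 to 48 and 5 to 7 in brown warming, 70 to 78 and 1 for the difference, 21 to 32 and 2 to 10 for cold beige against cold brown, 75 to 78 and 1 to 3 for warm beige against warm brown, and 1 to 3 lower and 41 to 60 higher for warm beige against white. With cold beige against white (84 higher, 1 lower) and warm brown against white (83 and 1) nothing moved. The count higher in beige warming was 2 with 1 CPM added, 5 CPM added, the title replicate block, library weights, the compared groups alone or batch 2, was 3 under quantile normalization, median-of-ratios scaling or totals without the 20 most abundant rows, and was 0 in batch 1. The count higher in brown warming was 19 under quantile normalization, 16 under those totals, 10 with library weights and 13 with the compared groups alone, and 26 were lower in batch 1. For cold beige against cold brown, the count higher was 5 with 5 CPM added, library weights, the compared groups alone or cold brown 1 and 5 left out (chosen after seeing the data), 8 under quantile normalization, 9 under the totals, 7 with the title replicate block, 0 in batch 1 and 14 in batch 2; the count lower was 46 under median-of-ratios scaling and 18 in batch 2 or without cold brown 1 and 5. For warm beige against warm brown, the count higher was 1 with a 5 CPM filter or library weights, 4 under the totals or in batch 2 and 0 in batch 1. Against white, warm beige had 5 lower under quantile normalization, 1 with the compared groups alone, and 1 lower and 5 higher in batch 1. The quantile difference had 2 higher. Complex medians relative to all rows moved as follows. In beige, complex IV (-1.61) was -1.35 with 5 CPM added, -1.36 under quantile normalization and -1.37 in batch 1, where II was -1.86 and V -1.48, against -1.43 and -1.09 with all libraries. In brown, quantile normalization gave -0.23 for I, 0.022 for II (a reversal of -0.36), -0.18 for III, -0.045 for IV and -0.18 for V. For the difference, V was -1.09 under quantile normalization and -1.03 in batch 1, where IV was -1.06. In brown, quantile normalization also turned Atp5b to 0.43, Cox4i1 to 0.23 and Sdha to 0.25. The cause of these shifts was not tested. Replicate numbers were not taken to pair the libraries, since not every pair correlated above 0.1. Over 27 same-numbered pairs, title numbers gave correlations of -0.167 to 0.323 and library numbers -0.263 to 0.35. Many of these pairs join warm with cold groups, or white with other groups, which cannot share an animal. The rule thus leaves undecided whether beige and brown libraries of 1 temperature were paired. As a hint from the data, the 7 pairs of beige and brown libraries of 1 temperature that share a library number all correlated positively (0.065 to 0.35), 5 of 7 best with their own number, and 5 of 7 over 0.1. With the library number as replicate block, 26 members were lower and 4 higher in cold beige against cold brown, and 77 and 2 in warm beige against warm brown. Among named genes, alternatives ended a call in 3 genes in beige, 14 in brown and 6 for the difference. The depth in reads is unknown, so no counting error can be given for low rows such as Cox6b2 and Atp5f1.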
